A study of Danio rerio with 8 samples.

Results

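The zebrafish Txnip and arrestin-domain (Arrdc) genes are described here across whole embryos cultured over 72 h under control conditions (n = 3), in raised glucose (n = 3) or in raised salt (n = 2). The 7 genes, txnipa, txnipb, arrdc1a, arrdc1b, arrdc2, arrdc3a and arrdc3b, were chosen by gene name from the 31953 genes of the deposited count table, and each name matched 1 row. They were also selected on earlier results of these samples, in which arrdc3b stood among the largest falls in high salt. Values in salt are therefore descriptions, and no p-value is given for the members in comparisons with the salt libraries. Where a member is said to be called or to pass in those comparisons, this describes the fit and tests nothing. The labels give no strain, clutch, age at the start of culture or dose of either agent. They do not say whether the samples of a group are separate clutches, so a p-value here reflects the scatter of these libraries alone, and that scatter may be technical.

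Txnip and the Arrdc proteins are the alpha-arrestins, relatives of the visual and beta-arrestins. Most carry short proline-rich motifs that recruit ubiquitin ligases of the NEDD4 family, and they thereby direct membrane proteins to internalization and degradation. Txnip also binds thioredoxin and lowers glucose uptake, and in mammals its gene is induced by glucose through the factors MondoA (Mlxip) and ChREBP (Mlxipl) with their partner Mlx. Mammalian ARRDC3 acts in trafficking of the beta-adrenergic receptor, and ARRDC1 recruits the ESCRT protein TSG101 to the plasma membrane, where vesicles bud. ARRDC2 is a less studied adaptor of the same build.

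The libraries held 14650129 to 17317519 counts, and 3 counts corresponded to 0.171 to 0.226 CPM, the depth-scaled count used below (with TMM library factors). Every member lay above that level in every library, the lowest being 25 counts of arrdc3b in one salt library. Libraries are named by group and by the suffix of their table column, 1m, 2f or 2m, whose meaning was not stated. By correlation of log2 CPM over 18422 genes, control 1m (highest r to another library 0.934) and salt 2m (0.937) stood apart from the other 6 (0.954 to 0.978). Mitochondrially encoded genes took 2.18% of counts in salt 2m, 3.61% in salt 1m and 3.61% to 5.32% in the other groups. These were whole embryos, so fewer cells of a type and less RNA per cell cannot be told apart.

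All 7 genes are protein coding. On build GRCz11, txnipa (ENSDARG00000036107) lies on chromosome 19, 24904180 to 24908103, and txnipb (ENSDARG00000070000) on chromosome 16, 42965296 to 42968883. The pair arrdc3a (ENSDARG00000052690, chromosome 5, 48334350 to 48344444) and arrdc3b (ENSDARG00000036028, chromosome 10, 43914683 to 43924650) are on different chromosomes, as are arrdc1a (ENSDARG00000068148, chromosome 5, 28916691 to 28931795) and arrdc1b (ENSDARG00000079839, chromosome 21, 14599906 to 14666411). The single gene arrdc2 (ENSDARG00000020761) is on chromosome 11, 13466845 to 13476123. In the table txnipa lies inside the span of 1 other gene on the same strand, si:dkey-81h8.1, which held 1 to 13 counts per library. The other 6 members overlapped no annotated gene.

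In control embryos txnipa was the most abundant member per length, at 95.8 ± 18.6 CPM per kilobase (SD, n = 3). It was followed by arrdc3b at 27.2 ± 1.84 and arrdc3a at 22.0 ± 4.10 CPM per kilobase, whose ranges over the 3 libraries overlapped. Then came arrdc1a (8.95 ± 1.33), arrdc2 (7.44 ± 0.61) and txnipb (5.56 ± 1.45 CPM per kilobase), each overlapping the next in this order, and arrdc1b was lowest at 2.70 ± 0.34 CPM per kilobase. In high salt the order was different: arrdc1a stood second to txnipa (15.5 ± 6.26 against 21.6 ± 2.19 CPM per kilobase, n = 2), and arrdc3b was last at 0.988 ± 0.448 CPM per kilobase. In glucose the order was that of the controls except that arrdc2 (9.40 ± 0.31 CPM per kilobase) stood above arrdc1a (8.29 ± 1.38), with overlapping ranges.

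**Figure D1:**
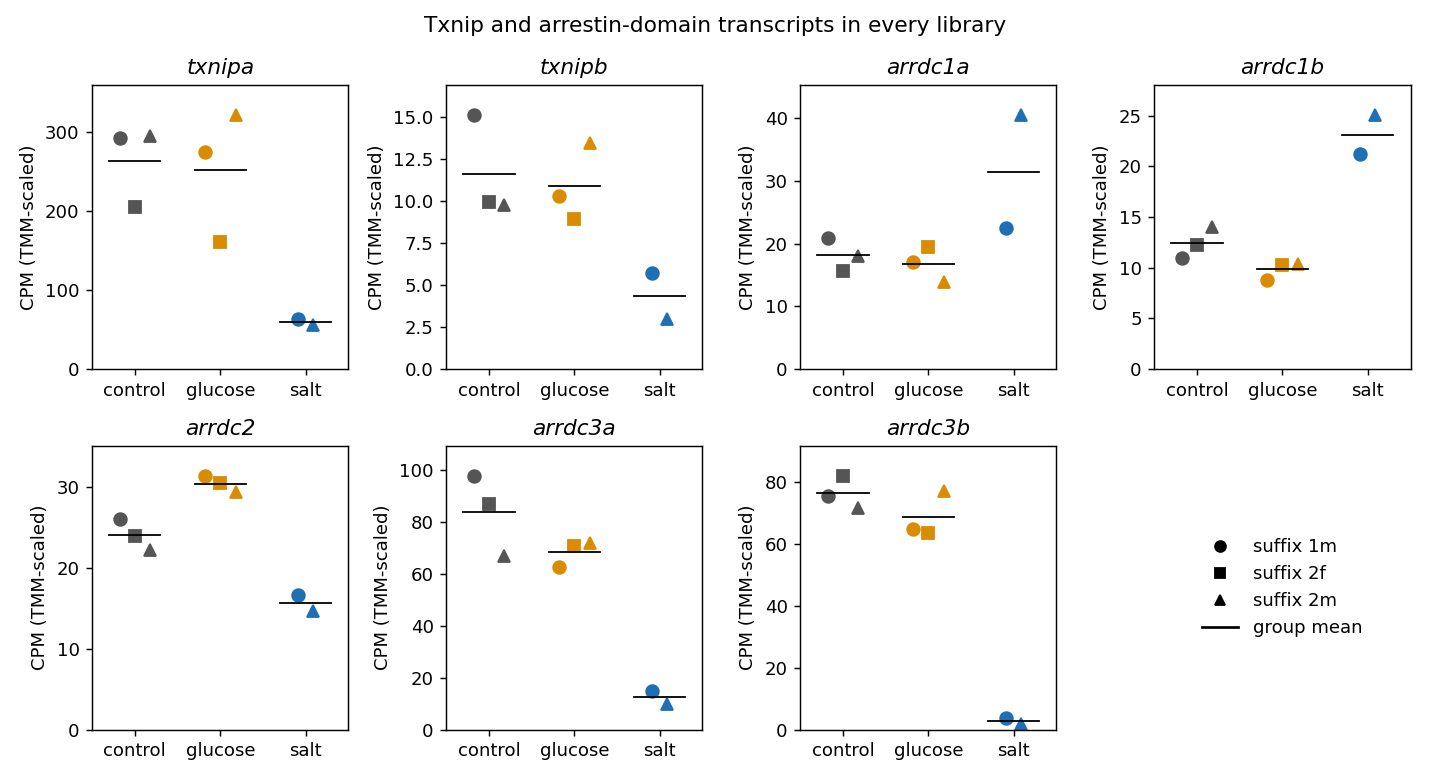
CPM of each of the 7 genes (y axis, from 0, a separate scale in each panel) in every library of the control, glucose and salt groups (x axis); symbols mark the column suffix and bars the group mean. The salt libraries lie below all others for txnipa, txnipb, arrdc2, arrdc3a and arrdc3b, and above all others for arrdc1a and arrdc1b.

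The salt and control groups address which transcripts differ under raised salt. The arrdc3 pair and txnipa fell, and arrdc3b did so from a level close to that of its copy to 3.64% of its control mean. The arrdc1 pair stood in the opposite direction, above the controls. The fit called 4 of the 7 members, 3 lower and 1 higher, where 5.35% of the 20562 tested genes were called (2.41% lower, 2.94% higher; scaling by library totals alone gave 44.3% of calls as higher where TMM gave 55.0%). Salt and control libraries did not overlap for any of the 7 members, as for 39.4% of all tested genes. Since the salt comparison took part in the choice of these genes, nothing is read from these counts. The median log2 fold change was -1.42 over the members and -0.04 over all genes.

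For arrdc3b, control 1m, 2f and 2m held 75.6, 82.0 and 71.7 CPM, whereas salt 1m and 2m held 3.67 and 1.89 CPM. The salt libraries kept 3.64% of the control mean, a fall of 27.5-fold. On the log2 scale the difference was -4.77 ± 0.31 (SE), the 38th lowest of the 20562 tested genes. That low place is what the choice of genes drew on. Both salt libraries were far below all 3 controls, and the log2 ratio within suffix was -4.36 for 1m and -5.25 for 2m.

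Its copy arrdc3a held 97.7, 87.1 and 67.0 CPM in control 1m, 2f and 2m and 15.0 and 10.04 CPM in salt 1m and 2m. The controls spread over a wider range than for arrdc3b, yet the lowest control was well above the higher salt library. The fall was 6.70-fold, and the log2 fold change was -2.74 ± 0.26, with -2.70 and -2.74 within suffixes 1m and 2m. Over the 17 alternative fits the log2 values ran from -5.32 to -4.37 for arrdc3b and from -3.04 to -2.34 for arrdc3a. Leaving out the libraries that stood apart, control 1m and salt 2m, gave -4.37 for arrdc3b and -2.34 for arrdc3a.

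The arrdc3 copies contributed almost equally to their joint counts outside salt. The share of arrdc3b was 43.6%, 48.5% and 51.7% in control 1m, 2f and 2m and 50.9%, 47.3% and 51.8% in glucose 1m, 2f and 2m. In salt 1m it was 19.6% (95% exact binomial interval 15.1% to 24.8%, 54 of 275 counts), and in salt 2m 15.8% (10.5% to 22.5%, 25 of 158 counts). These intervals cover counting error only. The 2 salt libraries were close to each other and lay below all 6 others.

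The thioredoxin-binding gene txnipa held 291.9, 204.6 and 294.5 CPM in control 1m, 2f and 2m, and 63.8 and 55.2 CPM in salt 1m and 2m. The salt libraries agreed closely, and the lowest control, 2f, was still over both. The fall was 4.43-fold, with a log2 fold change of -2.15 ± 0.32 and within-suffix values of -2.19 (1m) and -2.42 (2m). Without salt 2m the value was -2.04 and no longer passed, and omitting control 1m as well gave -1.95, which did not pass.

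The less abundant copy txnipb held 15.1, 9.95 and 9.77 CPM in the controls and 5.71 and 2.94 CPM in salt 1m and 2m. Its groups were separate, but the salt libraries differed from each other by -0.96 on the log2 scale (2m over 1m). The log2 fold change was -1.42 ± 0.37 and did not pass. It passed with the suffix as a replicate block (-1.55), with DESeq2 (-1.40), with no count filter (-1.41) and without salt 1m (-1.96). With control 1m and salt 2m omitted the value was -0.77. The share of txnipb in the joint counts of the pair was 4.25% ± 0.91 in controls (SD, n = 3) and 8.21% and 5.06% in salt 1m and 2m.

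For arrdc2, controls held 26.1, 24.0 and 22.2 CPM and salt 1m and 2m held 16.6 and 14.7 CPM. The log2 fold change of -0.62 ± 0.19 did not pass, whereas with DESeq2 the value was -0.60 and passed. The within-suffix values, -0.65 and -0.59, come from the same libraries. The salt mean was 1.54-fold lower than the control mean. With control 1m and salt 2m omitted the log2 value was -0.45.

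The vesicle-budding gene arrdc1b held 10.9, 12.3 and 14.0 CPM in the controls and 21.2 and 25.1 CPM in salt 1m and 2m, a 1.86-fold difference. It rose by 0.90 ± 0.22 (log2 ± SE) in the fit to all 8 libraries, but it passed in only 5 of the 17 alternative fits, and leaving out any library other than salt 1m ended the call (log2 values 0.78 to 0.99). Its copy arrdc1a held 20.9, 15.6 and 17.97 CPM in the controls, and its salt libraries held 22.5 (1m) and 40.5 CPM (2m). Here salt 1m was hardly above the highest control and salt 2m carried the difference. The log2 fold change of 0.79 ± 0.28 did not pass, the within-suffix values were 0.10 (1m) and 1.17 (2m), and without salt 2m the value was 0.32. Without salt 1m it was 1.17 and passed.

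**Figure D2:**
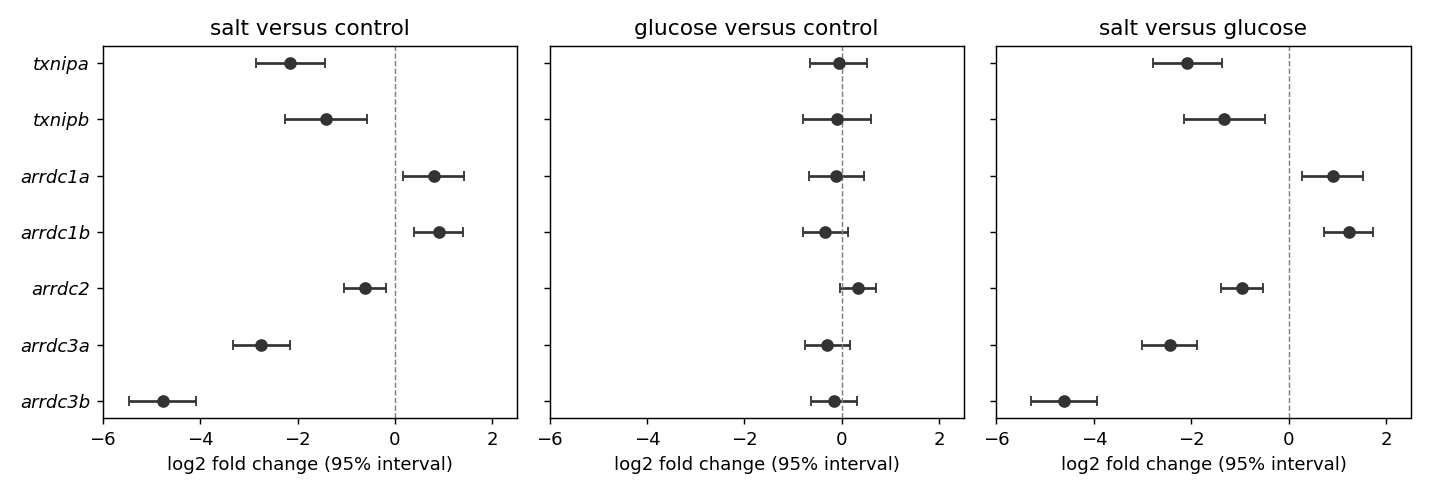
Log2 fold change with its 95% interval (x axis) of each gene (y axis) in the 3 comparisons, from 1 edgeR fit to all 8 libraries; the dashed line marks no difference. Values against control run from -4.77 (arrdc3b) to 0.90 (arrdc1b) in salt and from -0.34 (arrdc1b) to 0.34 (arrdc2) in glucose. The members were chosen with the fall of arrdc3b in salt known, so intervals in the panels with salt are descriptions.

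The summed level of the 7 members was 490.2 ± 51.7 CPM in controls (n = 3), 456.9 ± 87.2 CPM in glucose (n = 3) and 149.4 ± 1.302 CPM in salt (n = 2). The salt libraries held 148.5 and 150.3 CPM, while the other 6 ranged from 364.1 to 538.2 CPM. In controls txnipa made up 47.0% to 59.2% of that sum, in glucose 44.1% to 59.8% and in salt 36.8% to 43.0%.

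Tissue markers were set beside these values. The summed CPM of 14 epidermal markers was 19620 to 23980 in salt and 26190 to 31360 in controls, and the sum of 9 red blood cell markers was 110.7 to 574 in salt and 141.2 to 1468 in controls. Epidermal sums were thus separate between the groups, while red cell sums overlapped. Of the 14 epidermal markers 1, the keratin gene cyt1, was called (-1.20 ± 0.20, lower). The epidermal markers went both ways, 8 below 0 and 6 above, with a median log2 of -0.21 and the keratin gene krt17 highest at 1.56. Of the 9 red cell markers 0 were called, with 8 below 0 and a median log2 of -1.21. The sums of 15 muscle markers (13450 to 19160 against 9232 to 21570 CPM), 15 liver and yolk markers (14510 to 17180 against 14050 to 17650), 13 neuronal markers (611.9 to 1146 against 446.8 to 762.9) and 14 lens markers (163.5 to 477.8 against 58.5 to 471) overlapped. At most 1 of the liver and yolk markers and 2 of the lens markers were at 0 in a library. Their part in the members' values was not tested.

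The glucose and control groups address the response to raised glucose, the signal that induces Txnip in mammals. No member passed, and neither txnip copy was higher as a group. None of the 20562 genes was called in this comparison (0.0%; 1227 had an unadjusted p below 0.05, DESeq2 called 93 genes, limma voom 0, and edgeR with the suffix as a replicate block 36). For the members, the Benjamini-Hochberg adjusted p of edgeR (quasi-likelihood F-test) ran from 0.76 to 0.95, and no alternative fit called any of them. Among tissue markers, 14 of 14 lens, 15 of 15 muscle and 12 of 13 neuronal genes stood above control (median log2 1.46, 0.47 and 0.40). Most red blood cell (8 of 9) and liver and yolk markers (12 of 13) did too, while 12 of 14 epidermal markers stood below. Summed CPM of every one of these lists overlapped between glucose and control. Lens sums were 338.3 to 1657 CPM in glucose and 58.5 to 471 in controls. Muscle sums were 18750 to 30510 CPM in glucose and 9232 to 21570 in controls. For lens, muscle and neurons, control 1m was the lowest and glucose 2m the highest library of these groups. No marker was called, and the part of these markers in the members' values was not tested.

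Levels of txnipa in glucose 1m, 2f and 2m were 274.3, 160.5 and 321.1 CPM, spread on both sides of the controls. In both groups the 2f library was lowest. The log2 fold change was -0.07 ± 0.26, and its 95% interval ran from 0.639-fold to 1.43-fold. The glucose-over-control value within suffixes was -0.09 (1m), -0.35 (2f) and 0.12 (2m), so its sign varied. For txnipb the glucose libraries held 10.3, 8.90 and 13.4 CPM, within or near the control range, and the interval was 0.577-fold to 1.52-fold. The sign of both txnip values turned when control 1m or glucose 2f was left out, and that of txnipa also without control 2m.

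The arrdc3 pair overlapped between control and glucose. Levels of arrdc3a in glucose were 62.6, 70.8 and 71.8 CPM (-0.30 ± 0.20, interval 0.594-fold to 1.118-fold), and those of arrdc3b were 65.0, 63.6 and 77.3 CPM (-0.16 ± 0.21, 0.647-fold to 1.25-fold). A decrease to the level of the salt libraries lies outside both intervals. The share of arrdc3b in the pair was 47.9% ± 4.08 in controls and 50.0% ± 2.38 in glucose (SD, n = 3 each; two-sided exact permutation test, p = 0.6, Benjamini-Hochberg adjusted 0.9 over the 3 pairs of copies). That test ignored the column suffix, and it cannot give a p below 0.1 with these group sizes. For txnipb (4.25% against 4.29%) the same exact test gave p = 1, and for arrdc1b (40.7% against 37.1%) p = 0.3.

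For 2 of the 7 members, glucose and control libraries did not overlap, as for 14.8% of all tested genes. Levels of arrdc2 were 31.4, 30.6 and 29.4 CPM in glucose, all above the highest control of 26.1 CPM. The log2 fold change was 0.34 ± 0.17, adjusted p = 0.76 in edgeR's quasi-likelihood fit, and the 3 within-suffix values were 0.26, 0.35 and 0.40. Levels of arrdc1b were 8.79, 10.3 and 10.4 CPM, all below the lowest control of 10.9 CPM. Here the log2 fold change was -0.34 ± 0.20, adjusted p = 0.76 by the same test, with -0.31, -0.25 and -0.43 within suffixes. Neither difference passed the correction over all genes, and the shared sign of the within-suffix values follows from the lack of overlap. Glucose libraries of arrdc1a (17.0, 19.5 and 13.9 CPM) overlapped the controls (-0.11 ± 0.26).

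Salt was also set against glucose, a comparison that shares the salt libraries with the first. Here 5 of the 7 members were called, arrdc3b, arrdc3a, txnipa and arrdc2 lower and arrdc1b higher, where 4.95% of genes were called (1.9% lower, 3.05% higher). All 7 members had no overlap between these groups, as 44.8% of tested genes did. The salt libraries took part in the choice of the genes, so nothing is read from these counts either. The log2 fold changes of salt over glucose and salt over control were -4.62 and -4.77 for arrdc3b, -2.45 and -2.74 for arrdc3a, and -2.08 and -2.15 for txnipa. For arrdc2 they were -0.96 and -0.62, and for arrdc1b 1.23 and 0.90. The call of arrdc2 was lost without control 2f, salt 2m or any 1 of the glucose libraries, and with control 1m and salt 2m both left out, that of arrdc1b without salt 2m or any 1 of the glucose libraries, and that of txnipa without salt 2m (-1.96) or glucose 2m (-1.87). Against the glucose libraries txnipb (-1.32 ± 0.37) and arrdc1a (0.90 ± 0.28) did not pass. In this comparison txnipb passed with the suffix as a replicate block (-1.49), with DESeq2 (-1.30), without control 1m (-1.32) and without salt 1m (-1.86), and arrdc1a passed with DESeq2 (0.93) and without salt 1m (1.29). Without control 1m and salt 2m the values were -4.20 for arrdc3b, -2.16 for arrdc3a, -1.96 for txnipa, -0.91 for txnipb, -0.85 for arrdc2, 1.13 for arrdc1b and 0.44 for arrdc1a.

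**Figure D3:**
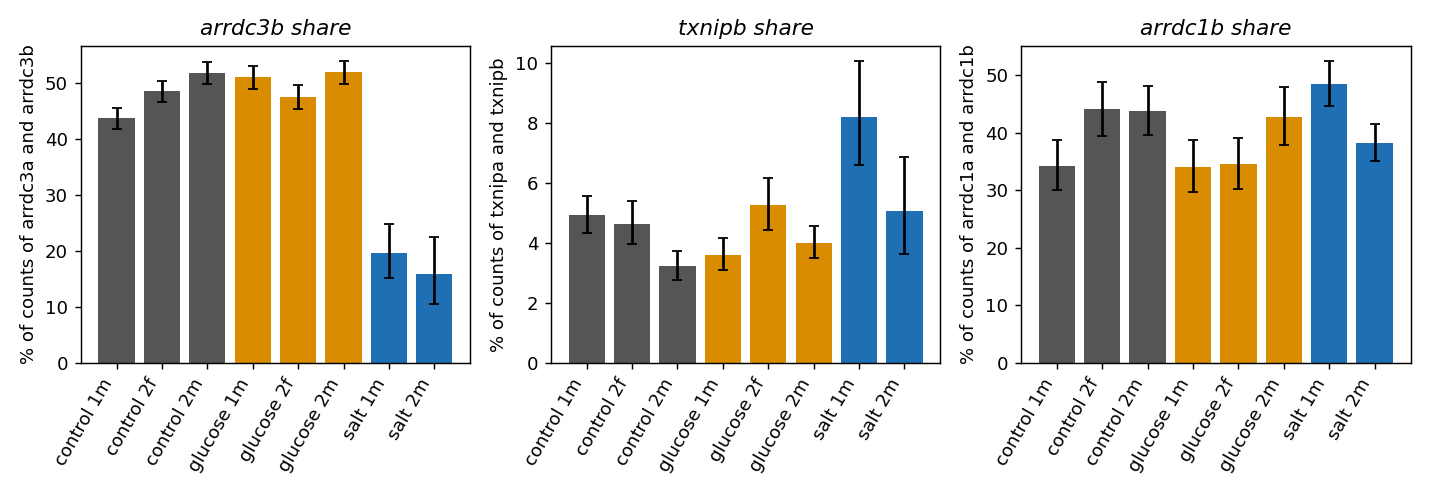
Share of the second copy in the joint counts of each pair of copies (y axis, percent, from 0) in each library (x axis), with 95% exact binomial intervals for counting error. The arrdc3b share lies between 43.6% and 51.8% outside salt and at 19.6% and 15.8% in salt, while the arrdc1b shares in salt are 48.5%, above all other libraries, and 38.3%, among them.

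Column suffix was compared too, since deviations from the group mean correlated between 1m libraries of different groups, and between 2m libraries. Between control 2f and glucose 2f the correlation was weak (r = 0.15). With group as a term, suffix 2 libraries stood from -0.43 (txnipb) to 0.25 (arrdc1b) on the log2 scale from suffix 1m libraries, and none of the 7 members was called, where 8.23% of genes were. The adjusted p of edgeR ran from 0.29 to 0.81. The 95% intervals reached from 0.514-fold (lower bound of txnipb) to 1.52-fold (upper bound of arrdc1b).

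The partners of these proteins were examined through 7 lists of related genes, chosen with earlier results of these data known. Adjusted p-values of list genes therefore describe the fit and are no independent test. Of 123 tested genes on these lists, 1 rose and 1 fell in salt against control (1.63%, beside 5.35% of all genes; the difference was not tested). The count ran from 0 to 12 over the alternative fits. The NEDD4-family ubiquitin ligases and their adaptors, which the alpha-arrestins recruit, had 0 of 14 called, with a median log2 fold change of 0.27 against -0.04 over all genes. Among them nedd4l differed by 0.20 ± 0.19 (adjusted p = 0.55 by edgeR). Of the ESCRT genes that act with mammalian ARRDC1, 0 of 18 were called, with a median of -0.23. Membrane proteins reported as Txnip or Arrdc cargo in mammals, glucose transporters and beta-adrenergic receptors among them, had a median of 0.58 with 15 of 18 above 0, and none was called. On the NEDD4-family list 10 of 14 stood above 0, and on the ESCRT list 6 of 18. These counts were not tested.

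Other genes with the arrestin fold, which include the visual arrestins and retromer subunits, had 0 of 12 called in salt and a median of -0.35. The beta-arrestin genes arrb2a and arrb2b differed by -0.70 ± 0.26 and 0.33 ± 0.19, and arrb1, at 0.585 to 3.51 CPM over the 8 libraries, by 0.45 ± 0.74 (adjusted p = 0.13, 0.29 and 0.73 in edgeR's quasi-likelihood fit). None of 17 tested thioredoxin and peroxiredoxin genes was called. The gene txn, whose product Txnip binds, held 283.7, 168.0 and 189.7 CPM in controls, 161.3 and 187.9 CPM in salt and 125.4 to 135.9 CPM in glucose. Its libraries overlapped between salt and control (-0.29 ± 0.23), and in glucose they all lay below the controls (-0.71 ± 0.21, adjusted p = 0.76 by edgeR).

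Of 20 genes of the Mondo-Mlx and carbohydrate-response list, fasn, for fatty acid synthase, rose and klf11a, a Krüppel-like factor gene, fell in salt. Levels of fasn were 24.1, 16.4 and 18.03 CPM in controls and 32.7 and 103.1 CPM in salt 1m and 2m, so salt 2m held most of the rise (1.80 ± 0.40, adjusted p = 0.038 by edgeR). Those of klf11a were 8.52, 8.30 and 10.6 CPM in controls and 3.94 and 2.11 CPM in salt (-1.59 ± 0.37, adjusted p = 0.041 by edgeR). Neither call held without salt 2m, control 2f, control 2m or any 1 of the glucose libraries. The list's median was -0.21. The factors themselves were not called: mlx stood at -0.71 ± 0.30, mlxip at 0.11 ± 0.21 and mlxipl at -1.85 ± 0.62 (adjusted p = 0.17, 0.78 and 0.10 by edgeR). The last was scarce, with 13 to 28 counts in control libraries and 5 in each salt library.

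FOXO factors, the glucocorticoid receptor and AMPK raise or restrain Txnip and Arrdc genes in mammals. Of 24 such regulators and their read-outs, none was called in salt, and the median was -0.17 (igfbp1b, at 0 in salt, lies below it also at a floor of 3 counts). The glucocorticoid receptor gene nr3c1 differed by 0.33 ± 0.22, its target gene fkbp5 by -1.10 ± 0.61 and foxo3b by 0.25 ± 0.34 (adjusted p = 0.37, 0.29 and 0.68 by edgeR). In glucose against control, 0 of the 123 related genes passed, and medians ran from -0.34 (thioredoxin and peroxiredoxin genes) to 0.04 (NEDD4-family ligases) over the 7 lists, against -5.87e-05 over all genes. The Mondo-Mlx and carbohydrate-response list had a median of -0.24 there, with 14 of 20 genes below 0 and 6 above. Of these 20 genes, 6 had an unadjusted p below 0.05 by edgeR, beside 1227 of all 20562, and the difference was not tested. In glucose mlx stood at -0.24 ± 0.26, mlxip at -0.03 ± 0.19 and mlxipl at -0.34 ± 0.48.

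**Figure D4:**
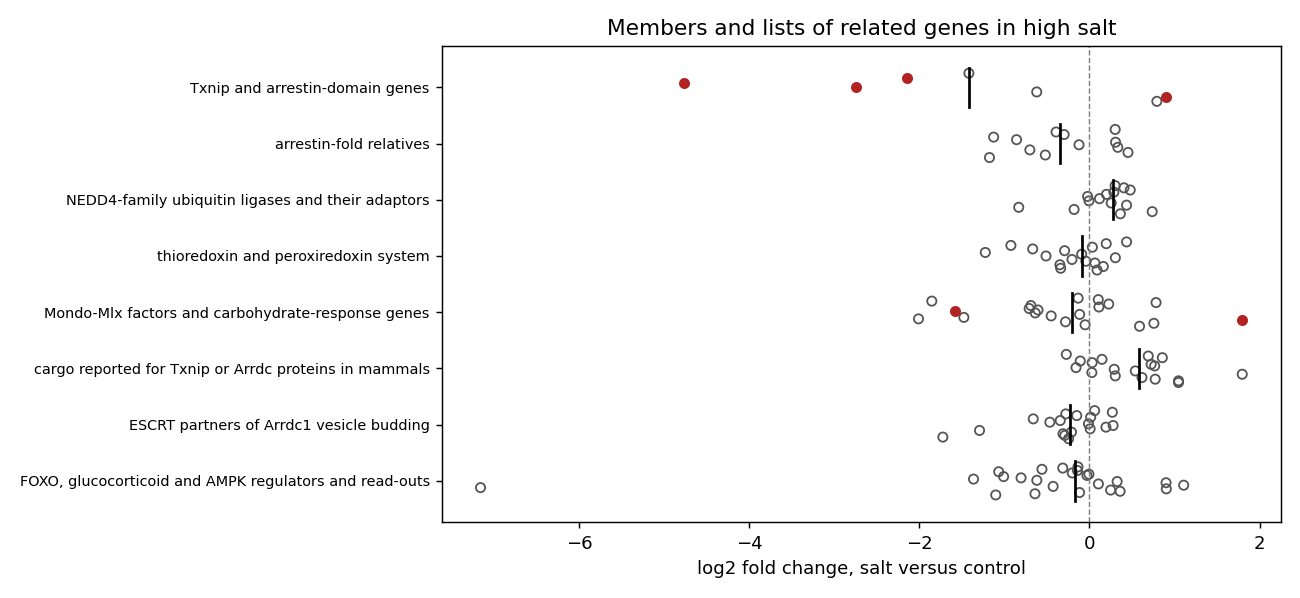
Log2 fold change of salt against control (x axis) for the 7 members and for each tested gene of 7 lists of related genes (y axis, points spread vertically for legibility); filled points passed the adjusted threshold and bars mark list medians. The members, chosen with the fall of arrdc3b in salt known, reach from -4.77 to 0.90. Filled points on the other lists are klf11a (-1.59) and fasn (1.80) in this fit, where alternative fits called from 0 to 12 related genes. The open point at the far left is igfbp1b, which had 0 counts in both salt libraries.

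Genes next to the members were looked at for a shared change along the chromosome. Of the 14 nearest neighbours with a mean of at least 1 CPM, 1 was called in salt, where 5.35% of all genes were. This was polr3gla, an RNA polymerase III subunit gene 53687 bases from txnipa, at -2.50 ± 0.45 (adjusted p = 0.020 by edgeR). It stood at -1.39 ± 0.36 in glucose against control and at -1.11 ± 0.43 in salt against glucose, and neither passed (adjusted p = 0.71 and 0.15 by edgeR). The neighbour of arrdc3b at 1948 bases, the centrin gene cetn3, differed by -1.01 ± 0.36 (adjusted p = 0.12). On its other side the nuclear receptor gene nr2f1b differed by 0.64 ± 0.20 (adjusted p = 0.088). The arrdc1 copies both lie next to a copy of the histone methyltransferase gene ehmt1, and ehmt1a (-0.97 ± 0.30, adjusted p = 0.083) and ehmt1b (-0.15 ± 0.20, adjusted p = 0.67 by edgeR) stood on the other side of 0 from arrdc1a and arrdc1b. The polr3gl copies likewise flank the txnip copies, and polr3glb differed by -0.19 ± 0.23. Both neighbours of arrdc2 stood below 0, as arrdc2 did (homer3 -0.64 ± 0.25, si:ch211-1a19.3 -1.08 ± 0.30). Those of arrdc3a stood above 0 and arrdc3a below it (adgrv1 0.70 ± 0.28, si:dkey-172m14.1 0.28 ± 0.25). Of the remaining neighbours, MAMDC4 (0.51, beside arrdc1b) shared its member's sign, and mtx1b (0.27), hfe2 (0.11) and nelfb (-0.01) did not.

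The genes most like each member were taken by Pearson's r of log2 CPM over the 8 libraries, which share the separation of salt from the rest. The search covered 13771 genes, those with a mean of at least 1 CPM and an ordinary symbol (starting in lower case, with no colon). Other genes were not compared. Their values in salt follow from that choice. For arrdc3b they were bpgm, for bisphosphoglycerate mutase (r = 0.996), mgea5, for the enzyme that removes O-GlcNAc from proteins (0.993), and znf800b, a zinc finger gene (0.993). For arrdc3a they were ino80e, a subunit gene of a chromatin remodeller (0.991), its copy arrdc3b (0.990) and bpgm (0.990). Levels of mgea5 were 263.4 ± 29.6 CPM in controls, 263.0 ± 32.9 in glucose and 16.8 ± 0.77 in salt. Those of ino80e were 57.2 ± 12.1, 43.5 ± 4.98 and 5.08 ± 2.71 CPM (SD, n = 3, 3 and 2). Both thus had the large step between salt and the other groups that marks the arrdc3 pair. The step was smaller for bpgm, the gene most like arrdc3b, from 13.9 ± 0.77 CPM in controls to 4.87 ± 0.70 in salt. Its log2 fold change in salt against control was -1.51 ± 0.24, and that of znf800b was -2.54 ± 0.32.

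The genes most like txnipa were dnajc5ga, bod1 and fam102aa (r = 0.976 to 0.979), and they differed less between groups than txnipa did: dnajc5ga, of a family of synaptic vesicle co-chaperones, went from 30.6 ± 1.51 CPM in controls to 19.7 ± 1.117 in salt. For txnipb they were lin7c, ccdc97 and tor2a (0.979 to 0.987). For arrdc1b they were keap1b, for a sensor of oxidative stress (0.992), acer1, for an alkaline ceramidase (0.990), and hoxc5a (0.976). Levels of acer1 were 11.1 ± 1.204 CPM in controls, 7.12 ± 1.03 in glucose and 49.4 ± 11.2 in salt, the same order of groups as arrdc1b. For arrdc1a they were mat2al, etnk1 and waslb (0.978 to 0.980), and for arrdc2 jade1, pspc1 and fam178a (0.972 to 0.992). Among the members, r with arrdc3b was 0.95 for txnipa, 0.918 for txnipb, 0.891 for arrdc2, -0.844 for arrdc1a and -0.920 for arrdc1b.

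**Figure D5:**
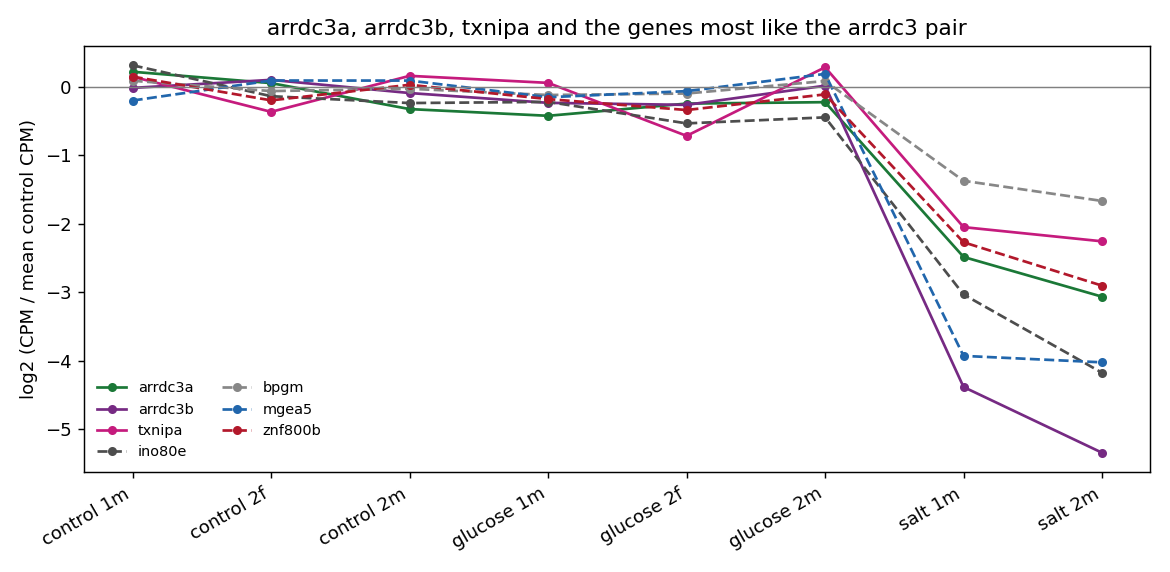
Level of arrdc3a, arrdc3b, txnipa (solid lines) and the genes most like the arrdc3 pair (dashed lines) in each library (x axis; lines only join the points of a gene), as log2 of CPM over the control mean (y axis). Every gene is lower in both salt libraries than in any other library, arrdc3b lowest, and glucose values reach down to -0.72 (txnipa in glucose 2f).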

How the data were processed

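Bulk RNA-seq was available for 8 zebrafish embryo libraries. The authors deposited raw read counts per gene, as whole numbers in 1 table. The submitters' processing notes name build GRCz11 and, among tools, featureCounts 1.5.0-p3 and HISAT2 2.0.5, besides edgeR 3.22.5, DESeq2 and StringTie 1.3.3b. No source used here gives settings, strand handling or the treatment of reads shared by gene copies, so values of the paired copies are uncertain to that extent. Per the labels' extraction protocol the material was hybridized to arrays, but the deposited values are sequencing counts and were treated so.

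All 8 libraries were fitted together with edgeR 4.0.16 (quasi-likelihood F-test, R 4.3.3) after TMM scaling and filterByExpr, which left 20562 genes and all 7 members. The threshold was an adjusted p of 0.05 (Benjamini-Hochberg over all tested genes), and residual degrees of freedom were 5. Each SE is the log2 fold change over the square root of F. DESeq2 1.42.0 and limma 3.58.1 (voom) were alternatives, as were other scalings, filters, each library left out and a replicate block. Levels per kilobase used the gene length of the deposited table. Log2 CPM for correlations had a prior count of 2.

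Columns were matched to groups by their first letter and carry no replicate number. Deviations from the group mean correlated between control and glucose libraries of the same suffix (r = 0.52 for 1m, 0.15 for 2f and 0.51 for 2m over 18422 genes), each above 0.1, so the suffix served as the block. The 2f pairing was weak: control 2f correlated as much with glucose 2m (r = 0.18), and control 2m correlated with glucose 2f at 0.11. Between libraries of a group, chi-square over its degrees of freedom was 14.4 to 74.2, well over 1, the value for pure counting noise; none is a duplicate.

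The members and the gene lists were chosen with earlier results of these data known. Besides the members, the rule named the 3 genes most like each by correlation, list members past the threshold, and 11 list genes whatever their value. List symbols were matched by name or by an older name in RefSeq's table (assembly GRCz12tu, names only), and mlxipl, listed under a clone name, was found that way. Neighbouring genes were examined after the data had been seen. The planned comparison of promoter and protein motifs was not run.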

Additional observations from a re-analysis of the deposited data

How the results depend on the processing

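In salt against control, and in salt against glucose, the sign of all 7 members' log2 fold changes was the same in each of the 17 alternatives, as their lack of overlap leads to. The replicate block changed no member's call other than that of txnipb in these 2 comparisons. Scaling by library totals alone moved the median of all genes in salt against glucose from -0.04 to -0.15. Salt had 2 libraries, so without one of them the lone library was assumed to vary like the other groups.

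The number of called genes moved widely, and the cause was not tested. In salt against control it was 1101, and 2834 with DESeq2, 718 with limma voom, 72 when only the compared groups were fitted, 2550 with the replicate block, 352 without control 1m and salt 2m, and 50 to 2355 with 1 library left out. In salt against glucose it was 1017, and 2630, 647 and 1857 with DESeq2, limma voom and the replicate block, and 59 to 2343 with 1 library left out. In glucose against control it was 0, and 16 with no count filter, 93 with DESeq2, 36 with the replicate block and 20 without control 1m and salt 2m. Between suffixes it was 1693, and 2670 with DESeq2, 987 with control and glucose libraries only, 154 without control 1m and salt 2m, and 561 to 1458 with 1 library left out.

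Related genes called in salt against control were 2, and 10 with DESeq2, 0 with limma voom and with the compared groups only, 12 with the replicate block, and 0 to 8 with 1 library left out. In salt against glucose they were 2, and 4 with no count filter, 14 with DESeq2, 1 with limma voom, 7 with the compared groups only, 10 with the block, 6 without control 1m and salt 2m, and 0 to 13 with 1 library left out. In glucose against control DESeq2 called 1. Between suffixes they were 13, and 6 with control and glucose only, 1 without control 1m and salt 2m, and 4 to 10 with 1 library left out.

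Uncalled values near 0 changed sign. In glucose against control, leaving out 1 library gave -0.28 to 0.17 for txnipa, -0.27 to 0.14 for txnipb and -0.23 to 0.0072 for arrdc1a, and leaving out control 1m and salt 2m gave 0.013, 0.14 and 0.0020. Between suffixes, leaving out 1 library gave -0.18 to 0.34 for arrdc1a and -0.27 to 0.078 for arrdc3b. There, without control 1m and salt 2m, txnipb was 0.092, arrdc1a -0.051, arrdc3a 0.16 and arrdc3b 0.091. With control and glucose only, arrdc1a was -0.19 and arrdc3b 0.060, and with limma voom arrdc3b was 0.0019.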

Other observations

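With group as a term, 13 of 123 related genes were called between suffix 2 and suffix 1m libraries, 10 higher and 3 lower in suffix 2, where 8.23% of all genes were called. Without control 1m and salt 2m, 1 was called. Of the 24 FOXO, glucocorticoid and AMPK genes, 6 were higher in suffix 2. They included the clock gene per1b (2.03 ± 0.31), igfbp1a (1.17 ± 0.18), foxo3b (0.70 ± 0.16) and sesn1 (0.65 ± 0.16), with adjusted p of 0.0054, 0.0051, 0.029 and 0.031 in the edgeR fit. Lens markers (10 of 14) and neuronal markers (10 of 13) were also called higher in suffix 2. So were 5 of 15 muscle markers, with 1 lower, and 1 of 13 liver and yolk markers. Of 14 epidermal markers 2 were called higher and 3 lower, and no red blood cell marker was called. The part of these markers in the values above was not tested. The glucose transporter gene slc2a1a, a cargo of Txnip in mammals, was lower in suffix 2 by -2.25 ± 0.24 (adjusted p = 0.0019 by edgeR). It held 43.8, 36.5 and 31.7 CPM in control, glucose and salt 1m and 4.39 to 12.5 CPM in the 5 suffix 2 libraries. Against control it did not differ past the threshold in salt (-0.11 ± 0.96) or glucose (-0.34 ± 0.86). That fit had no suffix term, so the spread between suffixes entered these SEs and a smaller group difference could not be seen. Glucose 1m, 2f and 2m held 36.5, 9.09 and 4.39 CPM, each below the control of its suffix (43.8, 12.5 and 7.10 CPM). Salt 1m was below control 1m, and salt 2m (7.40 CPM) slightly above control 2m.

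The gene igfbp1b, named after its values were seen, had 0 counts in both salt libraries, 2, 32 and 22 counts in control 1m, 2f and 2m, and 10, 17 and 14 counts in glucose 1m, 2f and 2m. It did not pass in salt (adjusted p = 0.059 in edgeR's quasi-likelihood fit), and control 1m was itself below 3 counts.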
